A study of Mus musculus with 34 samples.

Results

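The fructose 6-phosphate cycle and the enzymes that feed gluconeogenesis were followed here as 10 genes: the phosphofructokinases Pfkm, Pfkl and Pfkp, the bifunctional enzymes Pfkfb1 and Pfkfb3, the fructose bisphosphatases Fbp1 and Fbp2, and Pck1, Pcx and Got1. Members were all probe sets annotated to these symbols. That gave 17 probe sets for 9 of the 10 genes, out of 12394 genes with a probe set of their own. No probe set was annotated to Pfkfb1. Of the 17, 4 were control probe sets along the Pcx transcript and 13 could be tested. In a given comparison 8 to 11 of the 13 passed the filter on dim values, and Pfkp 1430634_a_at and Pck1 1455209_at passed it in none.

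Phosphofructokinase commits fructose 6-phosphate to glycolysis, and fructose bisphosphatase runs the reverse step, so that together they form a cycle. Fructose 2,6-bisphosphate, made and removed by the PFKFB enzymes, activates the kinase and inhibits the phosphatase. Liver uses the reverse step to make glucose, and skeletal muscle has its own phosphatase isoform, for which a role in making glycogen from lactate has been proposed.

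The series held 34 Affymetrix expression arrays in 8 groups, with expression given as intensity on a linear scale. MGSKO mice, which lack muscle glycogen synthase, were compared with wild-type (WT) mice at 3 months of age in anterior tibialis (4 MGSKO and 4 WT arrays), medial gastrocnemius (3 MGSKO and 5 WT) and liver (4 MGSKO and 4 WT). GSL30 mice, labelled as overexpressing muscle glycogen synthase, were compared with WT mice at 8 months in medial gastrocnemius (5 GSL30 and 5 WT). GSL30 and MGSKO mice thus differ in age, in their WT controls and in the series of array codes as well as in genotype. The labels give the strain as C57BL6/129SV for the tibialis arrays. They name neither the promoter of the GSL30 transgene nor the cells it acts in, and leave unsaid whether arrays of a group are separate animals, so p-values measure only the spread between these arrays. About 5 µg of RNA was used for each muscle array and 10 µg for each liver array.

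Glycogen synthase 1 (Gys1, 1416737_at) read 34.2 to 72.5 in MGSKO tibialis against 8183.7 to 9958.2 in WT tibialis, and 58.1 to 165 in MGSKO gastrocnemius against 3954.7 to 6377.6 in WT gastrocnemius. It read 7895.5 to 10404.4 in GSL30 gastrocnemius, above its WT group (5840 to 7184.8), so Gys1 separated every muscle group in the direction of its label. Liver transcripts were present in the 3-month gastrocnemius arrays. Over 472 probe sets bright in liver and dim in tibialis, the median was 8.26%, 3.80% and 2.90% of the WT liver level in the 3 MGSKO arrays, and 17.8%, 25.5%, 5.66%, 26.9% and 3.03% in the 5 WT arrays. It was 1.13% to 1.67% in GSL30 arrays, 1.42% to 2.70% in 8-month WT arrays and 0.883% to 1.39% in tibialis, where WT arrays were used to pick these probe sets as dim. They include Fbp1 1448470_at and Pck1 1423439_at. Of 12 hepatocyte markers 11 were measured. Their summed level was 58197.8 to 176321 in 3-month MGSKO gastrocnemius, 61733 to 783929 in 3-month WT gastrocnemius, 2419 to 4171.2 in MGSKO tibialis, 2659 to 4185.4 in WT tibialis and 544938 to 597660 in WT liver. No marker read 0 in any array. WT gastrocnemius replicate 2 at 3 months stood apart from its group. Its skeletal muscle markers summed to 1784610, against 379267 to 528138 in the other 4 WT arrays, its highest intensity was 310986, against 49446.9 to 73304.7, and its hepatocyte sum of 783929 was above every WT liver array. Without it the number of members called stayed at 0 between MGSKO and WT gastrocnemius and at 10 between WT gastrocnemius and WT liver, and values without it stand beside the results that rest on it. All arrays are bulk tissue, in which fewer cells of a type and less RNA per cell cannot be told apart.

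Muscle and liver differed in most members. Pfkm, Pfkfb3 and Fbp2 were higher in WT tibialis than in WT liver, whereas Fbp1, Pck1, Pcx and Pfkl were lower. In limma, with Benjamini-Hochberg adjustment over all tested probe sets and an adjusted p under 0.05 taken as a call, 11 of the 11 member probe sets that passed the filter differed between WT tibialis and WT liver, 6 higher and 5 lower in tibialis. Between WT gastrocnemius and WT liver 10 of 11 differed, 5 higher and 5 lower in gastrocnemius. Of all probe sets tested, 69.4% were called in the tibialis comparison (41.1% higher and 28.2% lower in tibialis) and 62.9% in the gastrocnemius comparison (36.0% higher and 26.9% lower in gastrocnemius), so most probe sets differed between these tissues. Both Pfkfb3 probe sets and Fbp2 passed the filter in these comparisons through muscle, and Pck1 passed in tibialis through liver, so these members had to differ and the counts support nothing about the members as a whole. Both comparisons use the same WT liver arrays. Each tissue also has its own series of array codes, so tissue and array series cannot be told apart.

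**Figure D1:**
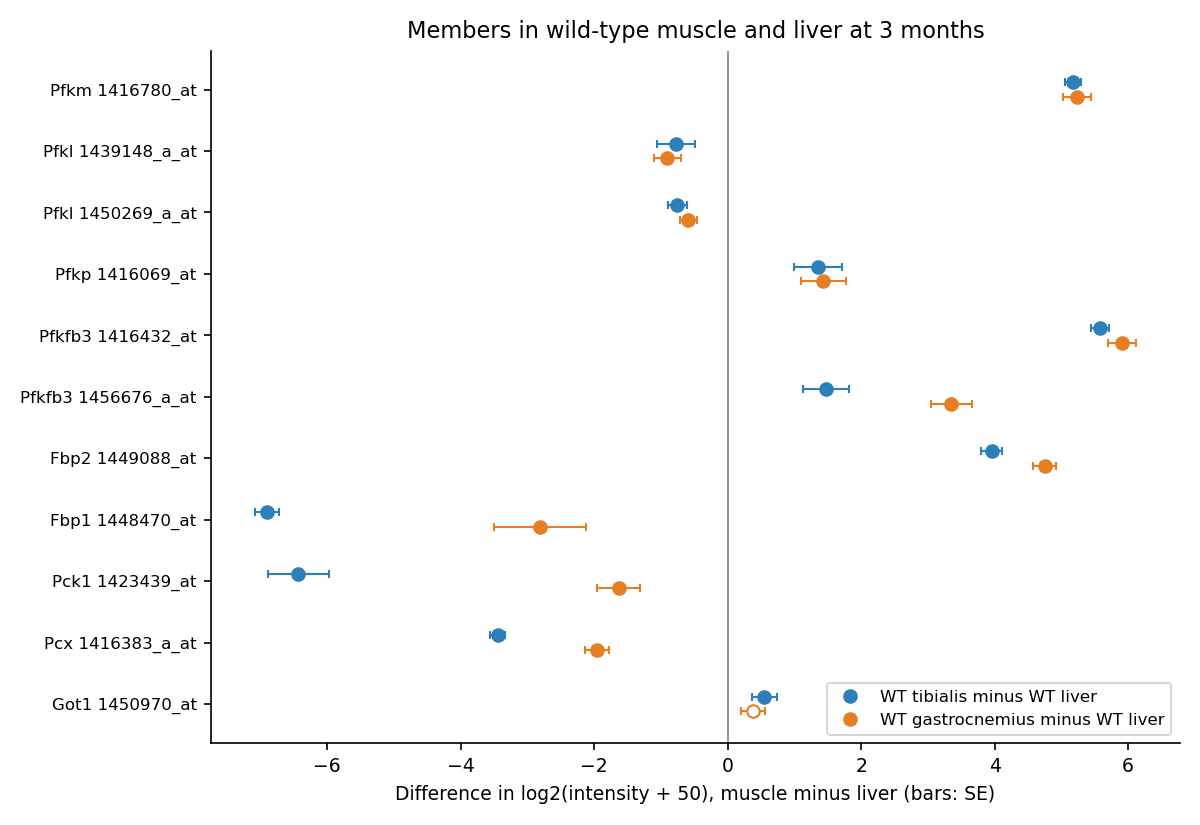
Difference between WT muscle and WT liver at 3 months for each member probe set that passed the filter for dim values, in log2(intensity + 50), with points right of 0 higher in muscle, bars for standard errors, and filled points called by limma but not the open point, Got1 in gastrocnemius. Pfkm, Pfkfb3 and Fbp2 lie far to the right, and Fbp1, Pck1 and Pcx to the left and nearer to 0 in gastrocnemius than in tibialis.

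Pfkm encodes the muscle phosphofructokinase subunit. Its probe set 1416780_at read 38941.3, 38337.0, 36828.5 and 41685.4 in WT tibialis and 30606.3, 66268.9, 39970.9, 34685.8 and 40049.6 in WT gastrocnemius, against 1181.6, 1104.0, 955.5 and 912.6 in WT liver. All muscle arrays lay far above all liver arrays, by 37.5 times in the mean of tibialis and 40.8 times in that of gastrocnemius (log2 differences of 5.17 and 5.24, limma adjusted p = 8.00e-11 and 1.04e-08). WT gastrocnemius replicate 2 stood above the other 4 arrays of its group, and the log2 difference was 5.06 without it.

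No mutant comparison called Pfkm. It read 56986.6, 44137.9, 52394.2, 46129.9 and 65697.6 in GSL30 gastrocnemius, against 49243.6, 46742.0, 34334.5, 44716.8 and 41084.3 in 8-month WT gastrocnemius, with overlap (log2 difference 0.29, SE 0.14, limma adjusted p = 0.262). MGSKO tibialis read 38836.5, 38223.8, 41162.2 and 39647.9, overlapping WT tibialis (log2 difference 0.02, limma adjusted p = 0.941), and MGSKO gastrocnemius read 40047.2, 40281.1 and 48052.6, inside the range of WT gastrocnemius (log2 difference 0.06, limma adjusted p = 0.927). MGSKO liver read 1057.5, 1151.2, 1170.8 and 1130.5, overlapping WT liver (log2 difference 0.12, limma adjusted p = 0.814).

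Pfkl, the liver subunit, has 2 probe sets. With 1450269_a_at, WT tibialis read 629.8, 779.1, 895.3 and 836.1 and WT gastrocnemius 946.0, 964.1, 759.5, 994.3 and 769.6, against 1358.1, 1234.1, 1586.6 and 1241.0 in WT liver. Every muscle array was below every liver array, but the difference was small beside that of Pfkm: -0.75 in tibialis and -0.59 in gastrocnemius on the log2 scale (limma adjusted p = 7.05e-04 and 0.00261). The other probe set, 1439148_a_at, read 961.0, 932.3, 1121.1 and 419.6 in WT tibialis and 922.9, 804.5, 554.9, 846.0 and 603.9 in WT gastrocnemius, against 1577.1, 1236.7, 1919.2 and 1071.8 in WT liver. Its differences were -0.77 and -0.90 (limma adjusted p = 0.0333 and 0.00258), and the tibialis call was lost without WT liver replicate 1 (adjusted p = 0.0741), WT liver replicate 3 (0.0935) or WT tibialis replicate 4 (0.0513).

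In GSL30 gastrocnemius 1439148_a_at read 591.8, 841.4, 717.2, 831.5 and 494.1, against 807.3, 850.6, 1321.6, 1033.0 and 1461.4 in WT. The groups overlapped, and the log2 difference of -0.61 (SE 0.19) did not pass (limma adjusted p = 0.0918). The second Pfkl probe set differed by only -0.09 there (adjusted p = 0.760), with 1007.8, 1177.7, 871.2, 884.3 and 1138.5 in GSL30 against 1080.4, 1472.4, 1041.7, 1055.5 and 829.6 in WT. The 2 probe sets of the gene thus gave differences of unlike size, and neither was called.

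MGSKO mice showed no call for Pfkl. In tibialis 1439148_a_at read 472.6, 710.6, 656.9 and 662.2 in MGSKO and 1450269_a_at read 817.7, 796.8, 754.1 and 1026.2 in MGSKO, each overlapping WT (log2 differences -0.36 and 0.11, limma adjusted p = 0.561 and 0.757). In gastrocnemius they read 1095.4, 988.7 and 850.6, and 764.0, 1166.1 and 1010.0, in MGSKO, again overlapping WT (0.39 and 0.13, limma adjusted p = 0.477 and 0.773). In liver they read 1973.0, 1557.9, 1156.0 and 1510.6, and 1865.6, 1264.2, 1380.7 and 1617.1, in MGSKO, also overlapping WT (0.10 and 0.16, limma adjusted p = 0.918 and 0.801).

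Pfkp, the platelet-type subunit, was dim. Its brighter probe set, 1416069_at, read 457.6, 446.6, 515.7 and 435.4 in WT tibialis and 543.2, 485.8, 465.9, 514.3 and 465.6 in WT gastrocnemius, against 299.9, 229.4, 147.9 and 35.0 in WT liver. Muscle and liver did not overlap, and the log2 differences were 1.35 and 1.43 (limma adjusted p = 0.00688 and 0.00363). In GSL30 gastrocnemius it read 429.3, 426.1, 544.8, 546.3 and 499.6, against 603.6, 549.0, 665.2, 534.0 and 775.5 in WT (log2 difference -0.32, SE 0.13, limma adjusted p = 0.180), and 1 WT array lay inside the GSL30 range. In MGSKO mice Pfkp was not called: it read 407.3, 598.3, 512.2 and 391.2 in MGSKO tibialis, 539.7, 525.3 and 642.9 in MGSKO gastrocnemius and 272.0, 270.9, 239.6 and 337.6 in MGSKO liver, each overlapping WT (log2 differences 0.02, 0.18 and 0.70, limma adjusted p = 0.957, 0.567 and 0.640). The other probe set, 1430634_a_at, stayed at or below 399.7 in every array and under the filter in all comparisons.

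Pfkfb3 makes fructose 2,6-bisphosphate and has, of the PFKFB enzymes, a high ratio of kinase to phosphatase activity. It was the member that fell in MGSKO tibialis. Probe set 1416432_at for Pfkfb3 read 2763.9, 1903.1, 2106.3 and 2021.6 in MGSKO tibialis, against 6748.7, 4576.0, 6571.5 and 5858.5 in WT tibialis. Every MGSKO array was below every WT array. The mean was 0.370 of the WT mean and the log2 difference was -1.41 (SE 0.16, limma adjusted p = 0.00329). Pfkfb3 was the 1 of 10 member probe sets tested that was called in this comparison, in which 1.40% of all probe sets tested were called, 0.663% higher and 0.737% lower. The 6 endothelial markers summed to 14724.7 to 17559.6 in MGSKO tibialis, against 10594.7 to 12710.6 in WT tibialis (difference in mean log2 level 0.50, exact permutation p = 0.0286), and the 8 slow fibre markers to 34772.6 to 43524.6 in MGSKO, against 13252.9 to 18969.2 in WT (0.19, exact permutation p = 0.543). The p-values are for the mean log2 level. The slow fibre sums, in which bright markers weigh most, did not overlap. The median over these markers in each array did, at 1348.05 to 2532.15 in MGSKO and 1286.2 to 1976.25 in WT. The part of these cell types in the Pfkfb3 result was not tested. The call held in all 8 fits that left out 1 array (log2 difference -1.53 to -1.35) and in all 9 other alternatives.

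In gastrocnemius the same probe set read 5109.3, 4641.3 and 4725.7 in MGSKO, against 9036.1, 5169.1, 9529.9, 5434.4 and 9168.8 in WT. All 3 MGSKO arrays were below all 5 WT arrays, with WT replicates 2 and 4 close to them. These 2 WT arrays also had the highest liver share, 25.5% and 26.9%; its part in their Pfkfb3 level was not tested. The log2 difference was -0.61 (SE 0.24) and was not called (limma adjusted p = 0.398; exact permutation p = 0.0357 for this probe set alone), and it was -0.74 (adjusted p = 0.253) without WT replicate 2. None of the 11 member probe sets tested was called between MGSKO and WT gastrocnemius, in which 0.147% of all probe sets tested were called, 0.0442% higher and 0.103% lower. An unadjusted limma p under 0.05 was found for 3 of these 11, beside 11.4% of all probe sets tested.

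In GSL30 gastrocnemius Pfkfb3 read 5357.8, 4876.5, 4725.3, 6632.6 and 4896.2, against 7143.5, 7354.0, 8279.5, 7252.6 and 12894.3 in 8-month WT. Again the groups did not overlap. The log2 difference was -0.66 (SE 0.17) and was not called (limma adjusted p = 0.0503, exact permutation p = 0.00794). Of the 10 fits that left out 1 array, 1 called it, the fit without GSL30 replicate 4 (adjusted p = 0.0344). Over these fits the difference ran from -0.75 to -0.51 and the adjusted p reached 0.115. Of 11 other alternatives 6 called it (adjusted p 0.0163 to 0.286). WT replicate 5 lay far above the other WT arrays.

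In liver Pfkfb3 was dim and lay under the filter, with 127.6, 159.7, 113.5 and 207.0 in MGSKO liver, against 71.9, 79.1, 71.5 and 73.2 in WT liver. The MGSKO livers all lay above the WT livers (exact permutation p = 0.0286, the smallest that 4 against 4 arrays allow). The difference between the MGSKO effect in liver and the mean MGSKO effect in the muscles was 1.70 on the log2 scale (SE 0.24, limma adjusted p = 9.10e-04; 1.76 without WT gastrocnemius replicate 2). Pfkfb3 entered this contrast through the muscle groups, where it is bright. Probe set 1416432_at was the 1 of 11 member probe sets tested that was called there, beside 0.685% of all tested, 0.302% higher and 0.383% lower. For the other Pfkfb3 probe set, 1456676_a_at, this difference was 0.82 (SE 0.50, limma adjusted p = 0.600) and was not called. Of the 8 member probe sets tested in MGSKO against WT liver none was called, where limma called 0.00737% of all probe sets tested. An unadjusted p under 0.05 was found for 1 of these 8, beside 8.33% of all. Between tissues Pfkfb3 was higher in WT tibialis and WT gastrocnemius than in WT liver, with no overlap (log2 differences of 5.58 and 5.91, limma adjusted p = 1.36e-10 and 3.95e-09). With liver under the filter the size depended on the settings, from 4.47 to 6.29 in tibialis and from 4.80 to 6.63 in gastrocnemius over the alternatives.

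With 1416432_at the MGSKO effect on Pfkfb3 differed by 0.80 between gastrocnemius and tibialis (SE 0.30, limma adjusted p = 0.442). In that comparison 0 of 11 member probe sets were called, beside 0.0147% of all tested. An unadjusted limma p under 0.05 was found for 2 of the 11, beside 10.05% of all. The GSL30 effect and the MGSKO effect in gastrocnemius on 1416432_at differed by -0.05 (SE 0.30, limma adjusted p = 0.943), so neither difference was shown. With 1456676_a_at these differences had the opposite signs and were not called either. They were -1.09 (SE 0.61, limma adjusted p = 0.547) and 1.37 (SE 0.69, limma adjusted p = 0.306).

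In the 3 mutant muscle comparisons the second Pfkfb3 probe set, 1456676_a_at, was lower like the first, but by unlike amounts and without a call. In GSL30 gastrocnemius this probe set turned sign in 5 of 21 alternatives. It read 617.2, 391.5, 370.7 and 471.7 in MGSKO tibialis, against 327.4, 605.4, 487.1 and 1290.4 in WT tibialis (log2 difference -0.37, limma adjusted p = 0.648). It read 378.3, 1541.2 and 933.7 in MGSKO gastrocnemius, against 2730.1, 1994.7, 3079.5, 1183.9 and 3584.4 in WT (log2 difference -1.46, limma adjusted p = 0.315). It read 1993.1, 1176.0, 1541.3, 1499.9 and 2450.9 in GSL30, against 2761.9, 3627.3, 1323.0, 2615.0 and 495.1 in 8-month WT (log2 difference -0.08, limma adjusted p = 0.930). The groups overlapped in all 3 comparisons. The lowest array of the MGSKO group (378.3) and that of the 8-month WT group (495.1) were also the arrays with the highest ratio of the 3' to the 5' Pcx control probe set, 6.92 and 7.05, where the other arrays of these groups lay at 2.79 to 3.32 and 2.16 to 5.85; a part of RNA quality was not tested. It read 143.3, 268.3, 257.8 and 74.4 in MGSKO liver and 131.9, 205.4, 272.0 and 153.1 in WT liver, under the filter there (exact permutation p = 0.857). WT liver was below WT muscle with no overlap (log2 differences of 1.47 in tibialis and 3.35 in gastrocnemius, limma adjusted p = 0.00313 and 6.04e-06).

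**Figure D2:**
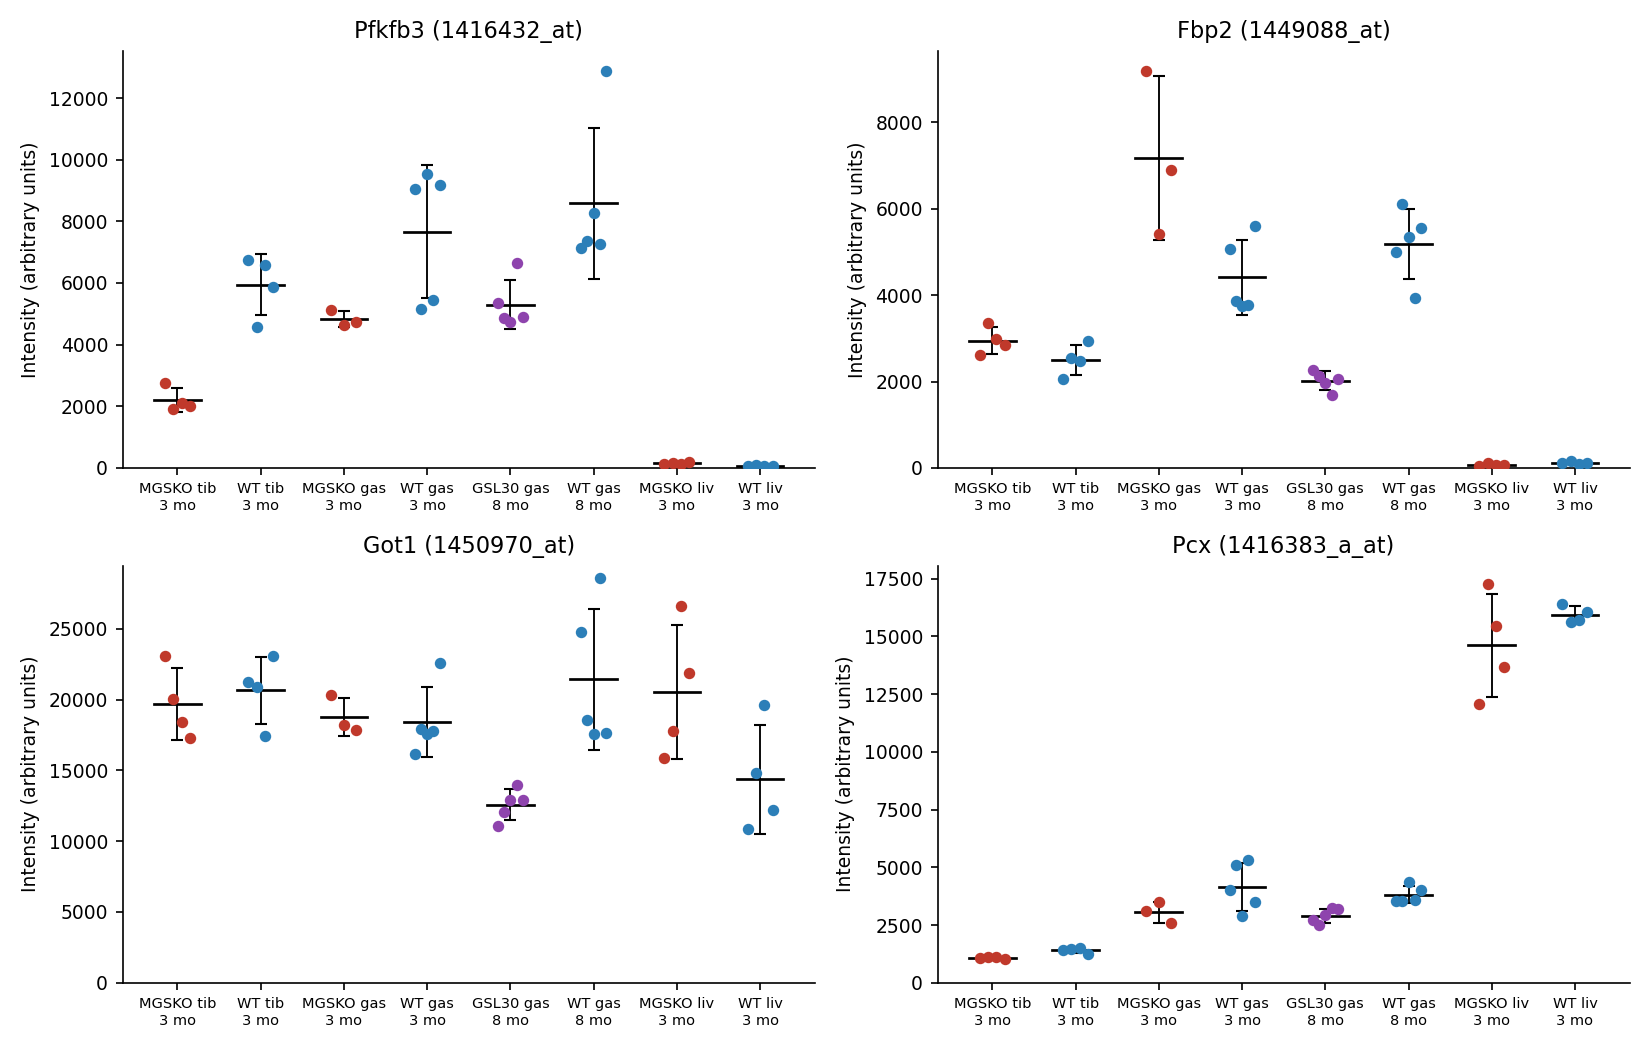
Intensity of Pfkfb3, Fbp2, Got1 and Pcx in each of the 34 arrays (points), with group mean and SD (lines and bars), on axes that start at 0; MGSKO is red, GSL30 purple and WT blue. Pfkfb3 is lower in MGSKO than in WT tibialis without overlap, and Fbp2 and Got1 are lower in GSL30 than in 8-month WT gastrocnemius without overlap.

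By mean intensity, the order of the groups for 1416432_at was 8-month WT gastrocnemius (8585 ± 2451, SD, n = 5), 3-month WT gastrocnemius (7668 ± 2169, n = 5), WT tibialis (5939 ± 987, n = 4), GSL30 gastrocnemius (5298 ± 783, n = 5), MGSKO gastrocnemius (4825 ± 249, n = 3), MGSKO tibialis (2199 ± 386, n = 4), MGSKO liver (152 ± 41.5, n = 4) and WT liver (73.9 ± 3.53, n = 4). Neighbours in this order overlapped down to MGSKO gastrocnemius, and from there each group lay apart from the next. Among 8324 genes the profile over the 6 muscle group means most like that of Pfkfb3 was that of Adhfe1, with a root mean square difference of 0.150 after centring on the log2 scale, followed by Pi16 (0.206), Slc2a3 (0.213), Ccrl2 (0.215) and Tfcp2l1 (0.229). Adhfe1 averaged 334 in MGSKO tibialis against 1191 in WT tibialis, and Slc2a3, a glucose transporter, averaged 249 against 765.

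Fbp2, the muscle fructose bisphosphatase, and Fbp1, the liver form, are neighbours on mouse chromosome 13, with 6352 bases between the genes and the same strand (RefSeq, GRCm38.p6: Fbp2 chr13:62836884-62858400, Fbp1 chr13:62864753-62888298). Their upstream windows are shown because Fbp2 was higher and Fbp1 lower in muscle than in liver. Capitals mark the E box CANNTG, the letters that myogenic factors of the MyoD family bind among many others. The windows are chr13:62858401-62858650 for Fbp2 and chr13:62888299-62888532 for Fbp1, both on the minus strand. The Fbp1 window ends where the annotated gene begins, and positions in it count from the start listed in the promoter table, which lies inside the gene:
Fbp2: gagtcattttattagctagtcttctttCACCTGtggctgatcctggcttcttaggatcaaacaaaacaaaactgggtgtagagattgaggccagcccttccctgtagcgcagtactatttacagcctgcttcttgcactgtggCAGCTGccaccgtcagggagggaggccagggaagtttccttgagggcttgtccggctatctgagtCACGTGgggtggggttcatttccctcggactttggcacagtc
Fbp1: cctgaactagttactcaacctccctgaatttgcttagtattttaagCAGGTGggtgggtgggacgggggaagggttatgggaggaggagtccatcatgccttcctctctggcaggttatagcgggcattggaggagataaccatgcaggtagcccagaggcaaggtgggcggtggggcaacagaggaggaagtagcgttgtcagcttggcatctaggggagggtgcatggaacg
The Fbp2 window held 3 matches, at -223, -107 and -42 bases from the start, and the Fbp1 window held 1, at -204. At least 1 match occurs in 66.2% of all 250-base windows before RefSeq starts and at least 3 in 12.2%. The -42 match, CACGTG, also holds the letters ACGTG.

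Fbp2 fell in GSL30 gastrocnemius. Probe set 1449088_at read 2259.8, 2133.2, 1968.3, 1681.0 and 2067.0 in GSL30, against 4992.7, 6117.1, 5349.6, 3925.5 and 5565.8 in 8-month WT. All 5 GSL30 arrays were below all 5 WT arrays, at 0.390 of the WT mean. The log2 difference was -1.33 (SE 0.14, limma adjusted p = 0.00134) and was called in all 10 fits that left out 1 array. With the hepatocyte marker score as a covariate it was -1.06 and no longer called (adjusted p = 0.0910); that fit called 0 of all 13576 probe sets tested.

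In MGSKO muscle Fbp2 was not called. MGSKO gastrocnemius read 9203.6, 5423.7 and 6906.1, against 5076.7, 3861.7, 3756.3, 3774.6 and 5595.2 in WT gastrocnemius, with an overlap of MGSKO replicate 2 and WT replicate 5 (log2 difference 0.68, SE 0.21, limma adjusted p = 0.313; exact permutation p = 0.0536), and it was 0.64 (adjusted p = 0.331) without WT replicate 2. Of 12 other alternatives 1 called this difference, the joint fit of all arrays (limma adjusted p = 0.0387). Without the arrays above 5% of the liver level, which left only WT replicate 5 in its group, the difference was 0.13. MGSKO tibialis read 2610.0, 3349.7, 2991.5 and 2839.5, against 2063.3, 2538.9, 2483.4 and 2928.3 in WT tibialis (log2 difference 0.24, SE 0.13, limma adjusted p = 0.437). The GSL30 effect and the MGSKO effect in gastrocnemius differed by -2.01 (SE 0.24, limma adjusted p = 2.38e-04). This was the 1 of 11 member probe sets tested that was called for that difference, beside 2.30% of all tested, 0.648% higher and 1.65% lower. It held in all 18 fits that left out 1 array (-1.97 without 3-month WT replicate 2, adjusted p = 4.75e-04), and dropped to -1.46 (adjusted p = 0.113) when the 4 WT and 1 MGSKO gastrocnemius arrays above 5% of the liver level were left out, which left 1 WT array at 3 months whose spread is assumed to be like that of the other groups.

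Markers of slow fibres and endothelium differed between mutant and WT gastrocnemius in both comparisons. The 8 slow fibre markers summed to 21707.8 to 38383.5 in GSL30, against 49496.4 to 60179.8 in 8-month WT (difference in mean log2 level -0.96, exact permutation p = 0.00794). They summed to 73784.9 to 98873 in MGSKO, against 33327.4 to 55669.3 in 3-month WT (0.91, exact permutation p = 0.0179). The 6 endothelial markers differed in the same directions, by -0.63 in GSL30 (exact permutation p = 0.00794) and 0.47 in MGSKO (exact permutation p = 0.0179). The 9 fast fibre markers differed by 0.19 in GSL30 (exact permutation p = 0.222) and by -0.17 in MGSKO (exact permutation p = 0.982). The 11 hepatocyte markers summed to 9347.9 to 15825.4 in GSL30, against 15883.3 to 38767.4 in 8-month WT (-1.22, exact permutation p = 0.00794). The fit with the hepatocyte score as a covariate called no probe set at all in GSL30 gastrocnemius, so it could not single out Fbp2 or Got1. The part of the other cell types in the GSL30 results on Fbp2 and Got1 was not tested.

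In liver Fbp2 was dim, with 51.9, 117.3, 66.3 and 69.5 in MGSKO liver, against 109.1, 157.7, 87.7 and 107.2 in WT liver (exact permutation p = 0.114). Fbp2 was higher in WT tibialis than in WT liver by 3.95 and in WT gastrocnemius by 4.75 on the log2 scale (limma adjusted p = 4.70e-09 and 5.07e-09). With liver under the filter these ran from 3.09 to 4.45 and from 3.86 to 5.26 over the alternatives.

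Fbp1 was high in liver and low in tibialis. Probe set 1448470_at read 38544.5, 43055.5, 45146.9 and 36723.6 in MGSKO liver and 41439.4, 47073.1, 38456.1 and 39726.1 in WT liver (log2 difference -0.03, limma adjusted p = 0.961), with overlap. It read 288.3, 276.6, 254.4 and 438.0 in MGSKO tibialis and 192.1, 304.8, 382.6 and 348.8 in WT tibialis (log2 difference 0.04, limma adjusted p = 0.951). The difference between WT tibialis and WT liver was -6.90 on the log2 scale, and the tibialis mean was 0.00737 of the liver mean (limma adjusted p = 1.96e-10).

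In 3-month gastrocnemius Fbp1 read 3919.1, 1564.6 and 1505.9 in MGSKO, against 8526.5, 16027.0, 2776.1, 15323.6 and 1164.1 in WT. The values followed the liver share of each array. They amounted to 9.40%, 3.75% and 3.61% of the WT liver mean in MGSKO, where the liver share was 8.26%, 3.80% and 2.90%, and to 20.5%, 38.5%, 6.66%, 36.8% and 2.79% in WT, where it was 17.8%, 25.5%, 5.66%, 26.9% and 3.03%. The log2 difference of -1.46 (SE 0.84, limma adjusted p = 0.518) became -1.10 without WT replicate 2. It became 0.38 without the arrays above 5%, which left only WT replicate 5 in its group. At 8 months Fbp1 read 435.7, 371.9, 374.8, 343.5 and 395.9 in GSL30, against 545.1, 1148.5, 387.9, 492.2 and 408.6 in WT (log2 difference -0.47, SE 0.23, limma adjusted p = 0.267), and WT replicate 2, the highest, also had the highest liver share of that age, 2.70%. The difference between WT gastrocnemius and WT liver was -2.81 (SE 0.69, limma adjusted p = 0.00448). It was -3.17 without WT gastrocnemius replicate 2 and -5.52 with the liver share subtracted from each gastrocnemius array. Without the arrays above 5%, which again left only WT gastrocnemius replicate 5, it was -5.10.

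**Figure D3:**
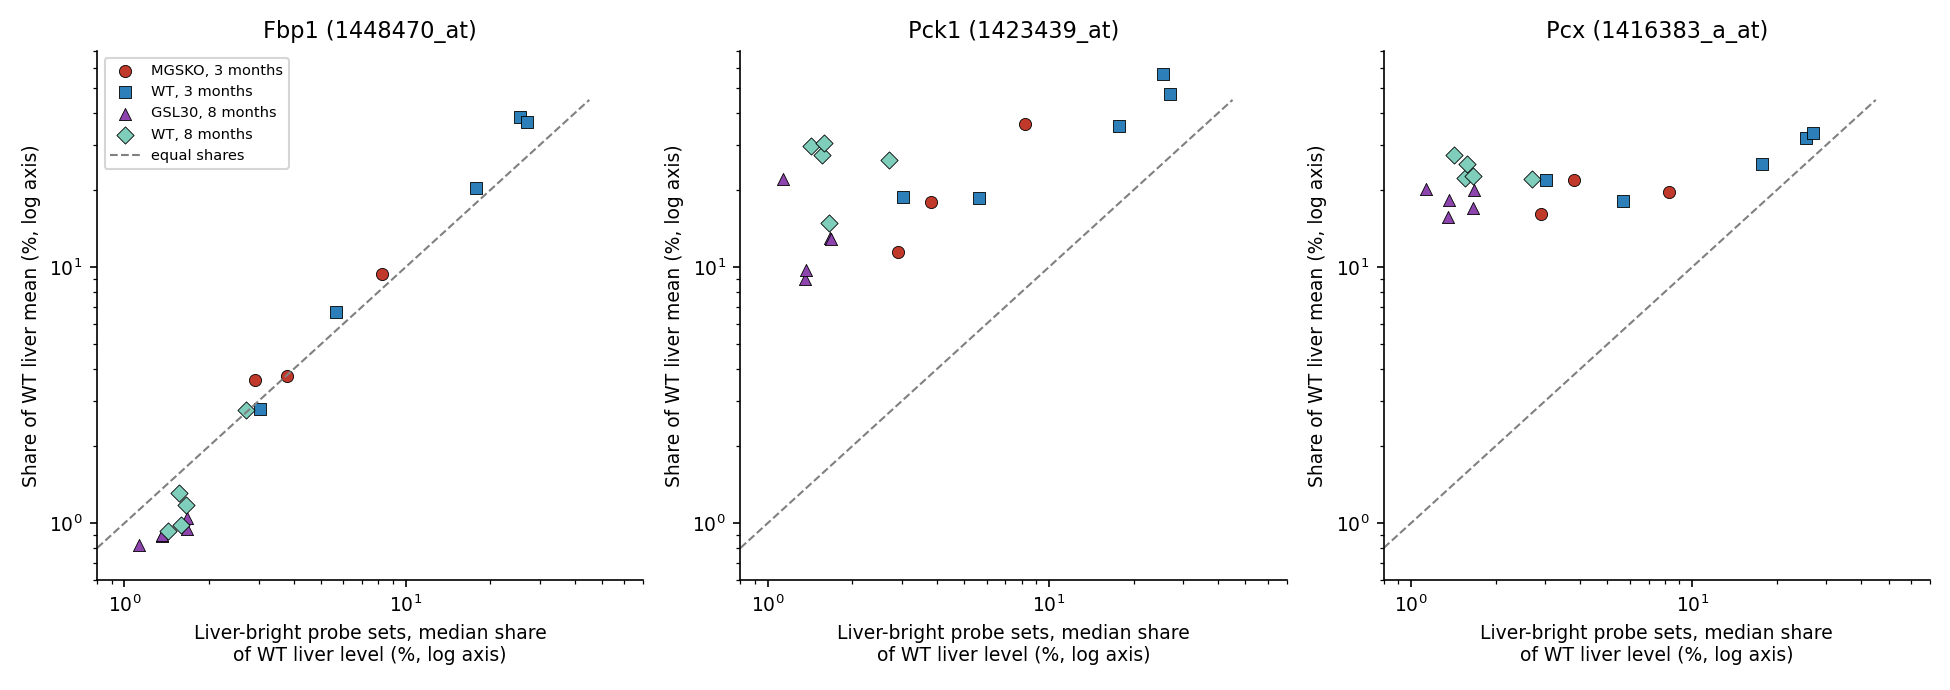
Level of Fbp1, Pck1 and Pcx in each gastrocnemius array as a share of the WT liver mean, against the median share over probe sets bright in liver in the same array; both axes are logarithmic and the dashed line marks equal shares. Fbp1 lies along the line, on both sides of it, whereas Pck1 and Pcx lie above it in every array.

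Pck1, the cytosolic phosphoenolpyruvate carboxykinase, makes phosphoenolpyruvate for gluconeogenesis and glyceroneogenesis and is a classic target of cAMP signalling in liver. The window before its start, RefSeq, GRCm38.p6, plus strand, chr2:173152823-173153072, holds the cAMP response letters ACGTCA at -91, in capitals, found in 6.47% of all windows:
Pck1: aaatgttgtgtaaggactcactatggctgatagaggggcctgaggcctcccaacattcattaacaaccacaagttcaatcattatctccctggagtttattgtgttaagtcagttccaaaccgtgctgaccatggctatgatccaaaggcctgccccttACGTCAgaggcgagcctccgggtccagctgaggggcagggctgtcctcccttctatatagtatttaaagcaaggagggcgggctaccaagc

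Probe set 1423439_at read 9813.9, 17918.1, 17299.0 and 18206.3 in MGSKO liver, against 16749.0, 17503.6, 14976.4 and 14820.8 in WT liver (log2 difference -0.06, limma adjusted p = 0.953), with MGSKO replicate 1 below all others. It read 69.9, 128.7, 81.6 and 180.7 in MGSKO tibialis and 51.8, 322.7, 316.2 and 35.6 in WT tibialis, under the filter (exact permutation p = 0.714). Its log2 difference was -6.43 between WT tibialis and WT liver and -1.63 between WT gastrocnemius and WT liver (limma adjusted p = 4.63e-07 and 0.00128). With tibialis under the filter the tibialis value ran from -7.07 to -5.51 over the alternatives. The gastrocnemius value became -2.39 with the liver share subtracted and -1.84 without WT replicate 2.

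In GSL30 gastrocnemius Pck1 read 2086.1, 1441.9, 1553.4, 3540.7 and 2054.0, against 4371.4, 4182.3, 4752.1, 2377.8 and 4895.6 in 8-month WT. GSL30 replicate 4 was high and WT replicate 4 low, and they overlapped. The log2 difference of -0.96 (SE 0.25) missed the threshold (limma adjusted p = 0.0511), and passed without GSL30 replicate 4 (adjusted p = 0.0169) or WT replicate 4 (0.0252). These were the 2 calls in 10 fits that left out 1 array, and the adjusted p reached 0.120 in the others. Of 11 other alternatives 5 called it (adjusted p 0.0308 to 0.361). At 3 months Pck1 read 5806.5, 2879.1 and 1841.3 in MGSKO, against 5707.4, 9085.0, 2972.3, 7574.6 and 3002.6 in WT (log2 difference -0.70, SE 0.47, limma adjusted p = 0.560; -0.49 without WT replicate 2).

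Pck1 in gastrocnemius was above the liver share of every array: 13.03%, 9.0%, 9.7%, 22.1% and 12.8% of the WT liver mean in GSL30, against 27.3%, 26.1%, 29.7%, 14.8% and 30.6% in 8-month WT. After subtraction of the liver share it averaged 1905 ± 855 in GSL30 and 3830 ± 1023 in 8-month WT (SD, n = 5 each). That share, 1.13% to 1.67% in GSL30 and 1.42% to 2.70% in 8-month WT, was close to the 0.883% to 1.39% of tibialis. How much of it is liver RNA was not tested. Adipocytes express Pck1, and 6 of 8 adipocyte markers were measured. They summed to 55275.1 to 91751.2 in GSL30 and 74130.6 to 117055 in 8-month WT (difference in mean log2 level -0.62, exact permutation p = 0.0238). Adipoq averaged 11125 ± 2716 in GSL30 and 17387 ± 4250 in 8-month WT (SD, n = 5 each), while it averaged 3320 ± 2074 in WT tibialis (SD, n = 4). The part of adipocytes in the Pck1 values was not tested. The other Pck1 probe set, 1455209_at, stayed between 16.7 and 167.9 in every array, liver included, and under the filter.

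Pcx encodes pyruvate carboxylase, which makes oxaloacetate from pyruvate in mitochondria. Probe set 1416383_a_at read 1059.8, 1130.9, 1113.2 and 1027.3 in MGSKO tibialis, against 1429.3, 1474.6, 1517.0 and 1257.7 in WT tibialis. All MGSKO arrays were below all WT arrays, but the log2 difference of -0.37 (SE 0.10) did not pass (limma adjusted p = 0.131). It read 2708.9, 2505.7, 2923.1, 3228.0 and 3174.5 in GSL30 gastrocnemius, against 3553.6, 3526.5, 4363.7, 3602.9 and 4026.7 in 8-month WT. Here too the groups did not overlap, and the log2 difference was -0.39 (SE 0.12, limma adjusted p = 0.0786).

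In 3-month gastrocnemius Pcx read 3119.3, 3480.5 and 2569.5 in MGSKO, against 4016.0, 5091.0, 2894.4, 5335.9 and 3486.1 in WT (log2 difference -0.41, SE 0.22, limma adjusted p = 0.497), with overlap. With the liver share subtracted it averaged 2262 ± 552 in MGSKO (SD, n = 3) and 1651 ± 854 in WT (SD, n = 5), and the log2 difference was 0.55 (limma adjusted p = 0.560), so its direction turned with that subtraction. In liver it read 12050.7, 17246.8, 15442.3 and 13685.6 in MGSKO, against 16395.5, 15600.0, 15690.8 and 16060.5 in WT (log2 difference -0.14, limma adjusted p = 0.809). The log2 difference was -3.45 between WT tibialis and WT liver and -1.96 between WT gastrocnemius and WT liver (limma adjusted p = 6.73e-10 and 6.13e-06); with the liver share subtracted the gastrocnemius difference was -3.36, and without WT replicate 2 it was -2.04.

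The 4 Pcx control probe sets, named 5', MA, MB and 3' along the transcript, did not all follow 1416383_a_at. In GSL30 gastrocnemius the 3' one averaged 1298 ± 127, against 1730 ± 156 in 8-month WT (SD, n = 5 each; exact permutation p = 0.00794, the smallest that 5 against 5 arrays allow). The 5' one averaged 537 ± 165 in GSL30, against 464 ± 181 in WT (exact permutation p = 0.5), and MA and MB differed by 0.12 and 0.09 on the log2 scale (exact permutation p = 0.794 and 0.968).

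In MGSKO gastrocnemius the 5' control averaged 371 ± 159 (SD, n = 3), against 967 ± 198 in WT (SD, n = 5; exact permutation p = 0.0179), a log2 difference of -1.33. MA and MB differed by -1.75 and -1.74 (exact permutation p = 0.0179 and 0.0357), and the 3' one by -0.52 (exact permutation p = 0.0893). The 5' control averaged 4450 ± 838 in WT liver, and the liver share ran from 2.90% to 8.26% in these MGSKO arrays and from 3.03% to 26.9% in their WT arrays. The ratio of 3' to 5' ran from 2.79 to 6.92 in MGSKO and from 1.59 to 3.43 in WT. The parts of liver RNA and of RNA quality in these differences were not tested.

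In MGSKO liver the 3' control averaged 6521 ± 1394, against 8397 ± 519 in WT liver (SD, n = 4 each), and every MGSKO array lay below every WT array (log2 difference -0.39, exact permutation p = 0.0286, the smallest possible for 4 against 4). The 5', MA and MB ones differed there by -0.36, -0.33 and -0.34 (exact permutation p = 0.2, 0.4 and 0.171). In MGSKO tibialis the 5', MA, MB and 3' controls differed by -0.28, 0.57, 0.06 and -0.07 (exact permutation p = 0.0571, 0.114, 0.857 and 0.457).

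Got1 (1450970_at), the cytosolic aspartate aminotransferase, works in the malate-aspartate shuttle and returns oxaloacetate to the cytosol for Pck1. It fell in GSL30 gastrocnemius, where it read 11083.6, 12073.9, 12918.7, 14007.8 and 12890.0, against 24812.1, 18569.7, 17567.9, 28568.7 and 17674.4 in 8-month WT. The groups did not overlap, and GSL30 was at 0.587 of the WT mean (log2 difference -0.74, SE 0.15, limma adjusted p = 0.0223). The call was lost without WT replicate 1 (adjusted p = 0.0556), GSL30 replicate 1 (0.0554) or GSL30 replicate 2 (0.0599), while the difference stayed between -0.80 and -0.63. Of 11 other alternatives 9 called it (limma adjusted p 0.00322 to 0.151), all but those with no filter and with the hepatocyte score as a covariate. Fbp2 and Got1 were the 2 of 11 member probe sets tested that were called in GSL30 gastrocnemius, both lower, beside 4.31% of all probe sets tested, 2.11% higher and 2.20% lower. An unadjusted limma p under 0.05 was found for 7 of the 11, beside 21.4% of all. The median log2 difference of the members tested was -0.47, beside 0.03 over all probe sets. It was -0.02 in MGSKO tibialis, 0.04 in MGSKO gastrocnemius and 0.11 in MGSKO liver, beside 0.04, 0.05 and 0.02 over all. In GSL30 Pfkl and Pfkfb3 count with 2 probe sets each. The members were chosen with earlier results known, so these medians test nothing about the set.

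Got1 read 20311.1, 18193.8 and 17874.8 in MGSKO gastrocnemius, against 16133.0, 17895.5, 17595.9, 17753.6 and 22619.8 in WT, with no difference called (log2 difference 0.04, limma adjusted p = 0.930). The GSL30 and MGSKO effects differed by -0.78 (SE 0.21, limma adjusted p = 0.0630). Tibialis read 23108.6, 20047.1, 18399.2 and 17296.0 in MGSKO and 21255.5, 20868.9, 17400.1 and 23103.0 in WT (limma adjusted p = 0.841). Liver read 15891.4, 17791.3, 26594.5 and 21852.6 in MGSKO, against 10856.2, 14803.4, 19606.5 and 12195.0 in WT, with overlap (log2 difference 0.52, SE 0.21, limma adjusted p = 0.563).

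Between tissues Got1 differed least of the members: WT tibialis exceeded WT liver by 0.55 (limma adjusted p = 0.0218) and WT gastrocnemius by 0.38 (adjusted p = 0.0839), on the log2 scale. The tibialis call was lost without WT liver replicate 1 (adjusted p = 0.0646), WT liver replicate 4 (0.0601) or WT tibialis replicate 4 (0.0512).

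**Figure D4:**
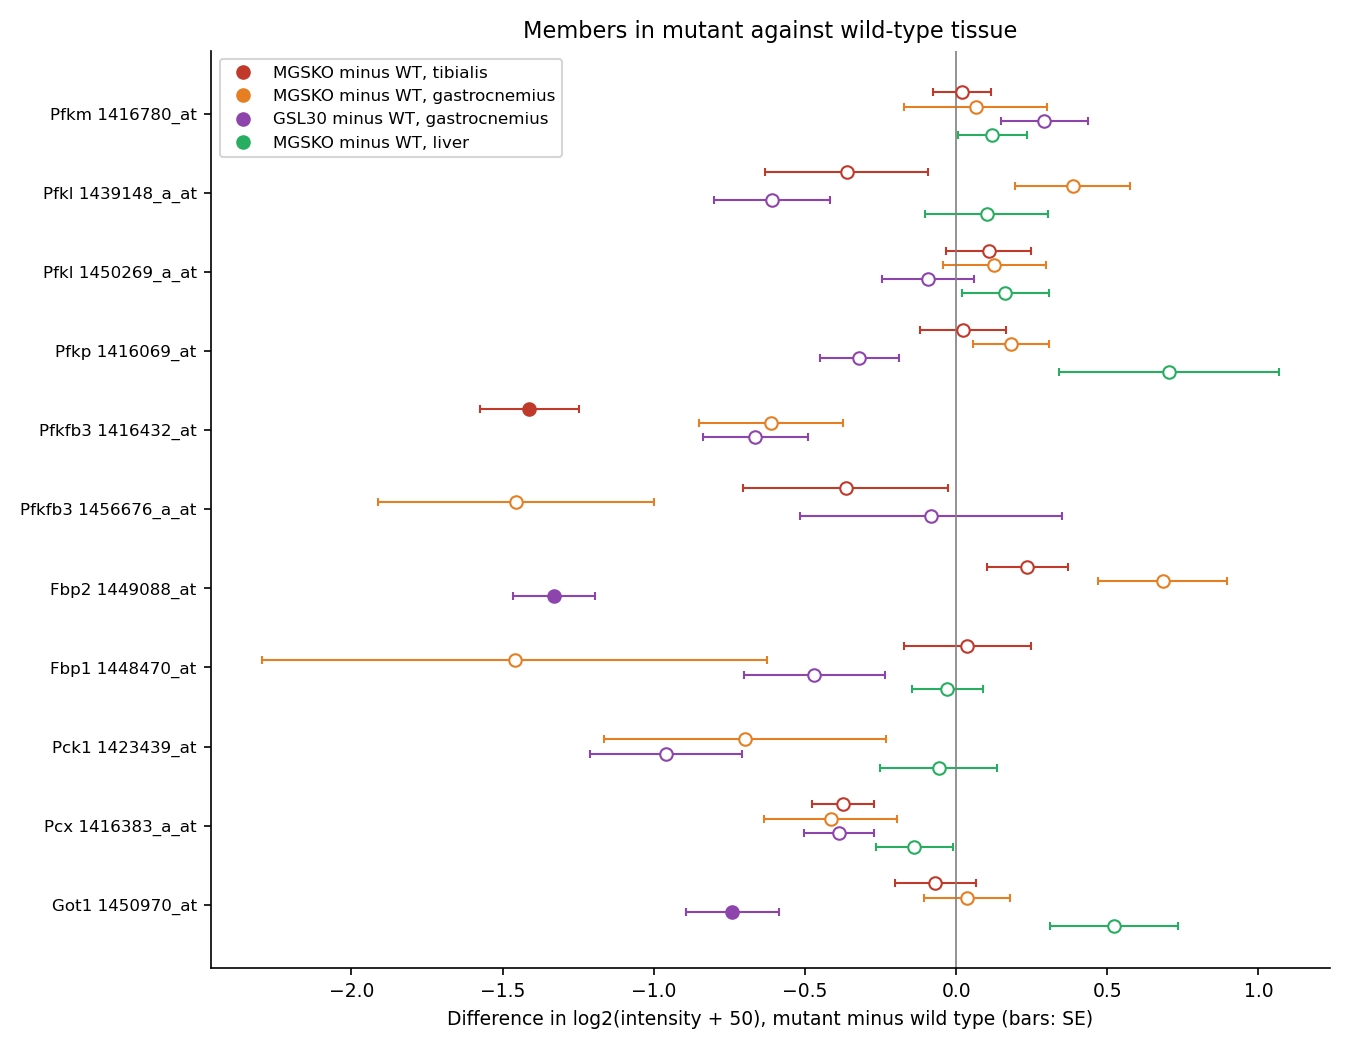
Difference between mutant and WT arrays for each member probe set in the 4 mutant comparisons, in log2(intensity + 50), for probe sets that passed the filter in that comparison, with bars for standard errors. The 3 filled points, called by limma, are Pfkfb3 in MGSKO tibialis and Fbp2 and Got1 in GSL30 gastrocnemius.

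Other genes of these pathways, from lists chosen with earlier results of these data known, changed in few cases. A gene counted as called where any of its probe sets was called, so counts of genes and the shares of probe sets beside them are on different scales. Of all probe sets tested, 1.40% were called in MGSKO tibialis and 4.31% in GSL30 gastrocnemius. Of 21 further glycolysis genes 16 were measured, and 13 had a probe set that passed the filter in each mutant comparison. In MGSKO tibialis 1 was called higher and 0 lower: Hk2, which traps glucose in muscle, averaged 17770 ± 1058 in MGSKO against 12077 ± 1041 in WT (SD, n = 4 each; log2 difference 0.56, limma adjusted p = 0.0408). In MGSKO gastrocnemius and liver 0 were called, and in GSL30 gastrocnemius 0 were higher and 2 lower. These were Ldhb, the heart-type lactate dehydrogenase subunit, which averaged 4126 ± 734 in GSL30 against 8141 ± 695 in WT (1448237_x_at; SD, n = 5 each; log2 difference -0.98, limma adjusted p = 0.00419), and Pgam1, a phosphoglycerate mutase (log2 difference -0.64, limma adjusted p = 0.0228). The list medians were 0.01 in MGSKO tibialis and 0.09 in GSL30 gastrocnemius, beside 0.04 and 0.03 over all probe sets tested.

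Of 17 other genes of fructose 2,6-bisphosphate and gluconeogenesis 14 were measured. In MGSKO tibialis 11 of them were tested, and 2 were called lower and 0 higher, beside 0.737% and 0.663% of all probe sets tested. Gpt2, the mitochondrial alanine aminotransferase, averaged 1646 ± 186 in MGSKO against 3291 ± 424 in WT tibialis (1438385_s_at; SD, n = 4 each; log2 difference -0.98, limma adjusted p = 0.00853), and Me1, the cytosolic malic enzyme, averaged 3026 ± 303 against 5628 ± 1202 (log2 difference -0.86, limma adjusted p = 0.0380). None of this list was called in the other mutant comparisons, nor were any of the 5 measured of 6 malate-aspartate shuttle genes in any mutant comparison.

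All 17 transcription regulators were measured. In MGSKO tibialis 1 of 14 genes tested was called higher, beside 0.663% of all probe sets tested. In GSL30 gastrocnemius 1 of 13 genes tested was called lower, beside 2.20% of all probe sets tested. Genes with several probe sets have more chances of a call, so these counts show no excess. Mlxipl, which encodes the carbohydrate response factor ChREBP, averaged 4924 ± 543 in MGSKO against 2421 ± 151 in WT tibialis (SD, n = 4 each; log2 difference 1.01, limma adjusted p = 0.00286). Ppargc1a, the coactivator PGC-1alpha, averaged 188 ± 39.7 in GSL30 against 395 ± 116 in WT gastrocnemius (1434099_at; SD, n = 5 each; log2 difference -0.88, limma adjusted p = 0.0197). The GSL30 effect on Ppargc1a differed from the MGSKO effect in gastrocnemius by -1.44 (limma adjusted p = 0.0345), and that on Ldhb by -1.43 (limma adjusted p = 0.00450).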

How the data were processed

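Expression was measured on 34 arrays. The values are intensity on a linear scale, used as deposited by the authors. Per the labels' protocols, RNA was extracted with TRIzol and RNeasy and Affymetrix targets were prepared; the summarising software was not given in the sources used here. Trimmed means were 999.2 to 999.9 in every array. Arrays of a group correlated at 0.902 to 0.980. Tests used log2(value + 50), so fold changes are on the log2(value + 50) scale and understate those of dim probe sets.

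Comparisons used only the arrays of their own groups, in limma 3.58.1 (lmFit, eBayes) under R 4.3.3 with the data.table package (version 1.17.8), checked on simulated data. The 64 control probe sets and those below the 40th percentile of mean log2 value were left out, which left 13576. Adjusted p is Benjamini-Hochberg over these, with calls under 0.05. Differences of effects were contrasts over 16, 18 and 24 arrays. Exact permutation tests of single values were two-sided. Of 22690 probe sets 20393 had 1 gene symbol, 691 several and 1606 none. The number of arrays limits the precision.

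All member probe sets are named by ID except the 4 Pcx controls, which are named by position, with every array's value for those called in a mutant or tissue comparison; list genes are named where called in a mutant comparison. The members and lists were chosen with earlier results of these data known. Replicate numbers follow the deposit order and pair no arrays. Promoter windows are the 250 bases before the start listed in the RefSeq promoter table (GRCm38.p6), printed where they lie outside the annotated gene; motifs were searched on both strands. The alternatives were pseudocounts of 1 and 200, a filter at the 60th percentile or none, quantile normalization, scaling to a common median, array weights, eBayes with a trend and robust settings, a joint fit of all arrays, leaving out each array, the liver share subtracted from gastrocnemius arrays, gastrocnemius arrays above 5% of the liver level left out, and the hepatocyte score as a covariate. Effects followed through these are those with an unadjusted p under 0.05, plus Fbp1, Pck1 and Pcx in mutant gastrocnemius, a choice made after the values were seen.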

Additional observations from a re-analysis of the deposited data

Results flagged for a closer look

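Within groups of 4 or 5 arrays, 91 sets of member values were examined for a single array far from the others, and 3 stood apart. Chance gives about 1 in 20, so 3 of 91 is no more than chance gives. Pfkfb3 (1416432_at) read 12894.3 in 8-month WT gastrocnemius replicate 5, where the other 4 arrays lay at 7143.5 to 8279.5. Pck1 (1423439_at) read 2377.8 in 8-month WT gastrocnemius replicate 4, against 4182.3 to 4895.6 in the others. Pck1 read 9813.9 in MGSKO liver replicate 1, against 17299 to 18206.3 in the others.

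For 2 members the effects in different groups differed by the test of the difference itself. The Fbp2 effect differed by -2.01 on the log2 scale between GSL30 and MGSKO gastrocnemius (limma adjusted p = 2.38e-04). The ages, WT groups and series of array codes differ too, which cannot be told apart from genotype. With Pfkfb3 1416432_at the MGSKO effect was 1.70 higher in liver than in the mean of the muscles (limma adjusted p = 9.10e-04). Its liver intensities were at most 207.0, under the filter, and it entered that contrast through the muscle groups, where it is bright. With the other Pfkfb3 probe set, 1456676_a_at, the difference was 0.82 (limma adjusted p = 0.600) and was not called.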

How the results depend on the processing

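The number of member probe sets called in MGSKO tibialis was 1 in every fit that left out 1 array. That range was 0 to 0 in MGSKO gastrocnemius, 1 to 4 in GSL30 gastrocnemius (1 without WT replicate 1 or GSL30 replicate 1 or 2, 4 without GSL30 replicate 4), 0 to 0 in MGSKO liver, 9 to 11 between tibialis and liver and 10 to 11 between gastrocnemius and liver. It was 0 to 0 for MGSKO gastrocnemius minus tibialis, 1 to 2 for GSL30 minus MGSKO (2 without 3-month WT replicate 5) and 1 to 2 for liver minus muscles (2 without MGSKO liver replicate 2). In GSL30 gastrocnemius the count of 2 became 4 with quantile normalization, a pseudocount of 200, a trended and robust eBayes or array weights, 5 with a filter at the 60th percentile, 1 with no filter and 0 with the hepatocyte score as a covariate. The count of 0 in MGSKO gastrocnemius became 1 with all arrays in 1 fit. For GSL30 minus MGSKO, 1 became 2 with a pseudocount of 200, the 60th percentile, a trended and robust eBayes, array weights or the liver share subtracted, and 0 without arrays above 5% of the liver level, which leaves fewer arrays. For liver minus muscles, 1 became 2 with quantile normalization or all arrays in 1 fit. Calls over all probe sets moved as well: leaving out 1 array, from 63 (without MGSKO replicate 2) to 300 (without WT replicate 4) around 190 in MGSKO tibialis, from 7 (without WT replicate 5 or MGSKO replicate 3) to 25 around 20 in MGSKO gastrocnemius, and from 182 (without GSL30 replicate 2) to 772 (without GSL30 replicate 4) around 585 in GSL30. Reversed values were Pcx in MGSKO gastrocnemius, 0.55 with the liver share subtracted, and, with the hepatocyte score as a covariate, Pck1 in MGSKO gastrocnemius (0.013) and Fbp1 in GSL30 (0.26). None of these was called. Fbp1 in MGSKO gastrocnemius also reversed, to 0.38, without arrays above 5%, which left only WT replicate 5 in its group. Over all 95 member effects, 32 turned sign in some alternative and 0 of the 26 called ones did. No other cause of these moves was tested. No paired analysis was possible because the replicate numbers follow deposit order. Dim members (Pfkp, 1 Pck1 probe set, Pfkfb3 and Fbp2 in liver) are limited by signal.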
